A study of Mus musculus with 8 samples.

Results

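The myogenic regulators examined here are 9 transcription factor genes that direct skeletal muscle formation or muscle gene expression: Pax7, Myf5, Myod1, Myog, Myf6, Six4, Mef2a, Mef2c and Mef2d. They were taken by symbol from a table of 24535 gene symbols, and all 9 were found. Values come from poly(A)-selected RNA of brown adipose tissue in 8 libraries. WT 55, 62, 64 and 65 are the 4 wild type libraries, and PATKO 53, 57, 70 and 71 are the 4 libraries in which PGRMC2 was knocked out in adipose tissue. Both groups were of strain 129Sv/C57BL6j, were 18 weeks old, were housed at 30 °C and had free access to chow. The sources used here state neither the promoter that drives the deletion nor the number of animals per library. P-values therefore measure the spread between these libraries, which may be technical.

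In muscle progenitors, the paired-box factors PAX3 and PAX7 and the sine oculis homeobox factors, among them SIX4, act upstream of the myogenic basic helix-loop-helix factors. MYF5 and MYOD1 commit cells to the muscle lineage, MYOG drives their differentiation, and MYF6 (also called MRF4) is the member of that family that is abundant in adult fibres. These factors bind E-boxes as dimers with E proteins, and the MADS-box factors MEF2A, MEF2C and MEF2D act with them on muscle promoters. MEF2 factors are also expressed in many other cells, including neurons, immune cells and endothelium. Brown adipocytes of the interscapular depot descend from embryonic cells that once expressed Myf5, and PRDM16 with its partners directs such precursors away from the muscle fate.

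Promoters of these genes were searched for motifs of the same factor families, and 3 stretches are shown because they carry most of the matches found. RefSeq promoter windows of GRCm38.p6, reaching from 250 bases before to 50 bases after an annotated start, were available for 7 members, with 10 windows in all, and Myf6 and Myod1 had no entry. Each window was searched on both strands for the E-box CANNTG and for the MEF3 motif, which sine oculis homeobox factors bind, as TCAGGTT. The MEF2 consensus was searched as YTAWWWWTAR, where Y is C or T, W is A or T and R is A or G. Sites that depart from these patterns were not counted. Capitals mark a match on either strand, and no 2 matches overlapped. The first line is the Myog promoter (chr1:134289754-134290003, plus strand), the second the most upstream Mef2c start (chr13:83503784-83504033, plus strand) and the third the start region of Mef2a (chr7:67372849-67372908, minus strand).
Myog: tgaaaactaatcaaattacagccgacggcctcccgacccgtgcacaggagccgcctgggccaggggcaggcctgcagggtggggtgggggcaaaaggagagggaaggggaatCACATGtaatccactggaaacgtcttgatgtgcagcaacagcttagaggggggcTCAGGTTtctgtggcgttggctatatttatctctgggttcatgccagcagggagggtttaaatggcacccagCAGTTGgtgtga
Mef2c: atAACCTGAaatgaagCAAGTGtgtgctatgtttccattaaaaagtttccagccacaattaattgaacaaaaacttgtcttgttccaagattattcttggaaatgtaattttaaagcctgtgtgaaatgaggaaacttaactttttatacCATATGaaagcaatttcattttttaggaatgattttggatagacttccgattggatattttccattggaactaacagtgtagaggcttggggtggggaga
Mef2a: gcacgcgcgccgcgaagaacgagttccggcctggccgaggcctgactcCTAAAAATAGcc

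The Myog window held 2 E-boxes, which begin 138 and 12 bases before the start, and 1 MEF3 match that begins 84 bases before it. Its stretch ctatatttat departs from the MEF2 consensus as searched at the last base alone, so it was not counted. The Mef2c window of the most upstream start held 2 E-boxes and 1 MEF3 match. In Mef2a, the MEF2 consensus match begins 2 bases before the start. Six4 held a MEF3 match in 1 of its 2 windows. The windows of Myf5, Pax7 and Mef2d held none of the 3 motifs. Among 32851 promoter windows of the same length, 72.3% held an E-box, 4.07% the MEF3 motif and 3.19% the MEF2 consensus, against 3, 3 and 1 of the 10 member windows. A match describes letters and not binding.

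**Figure D1:**
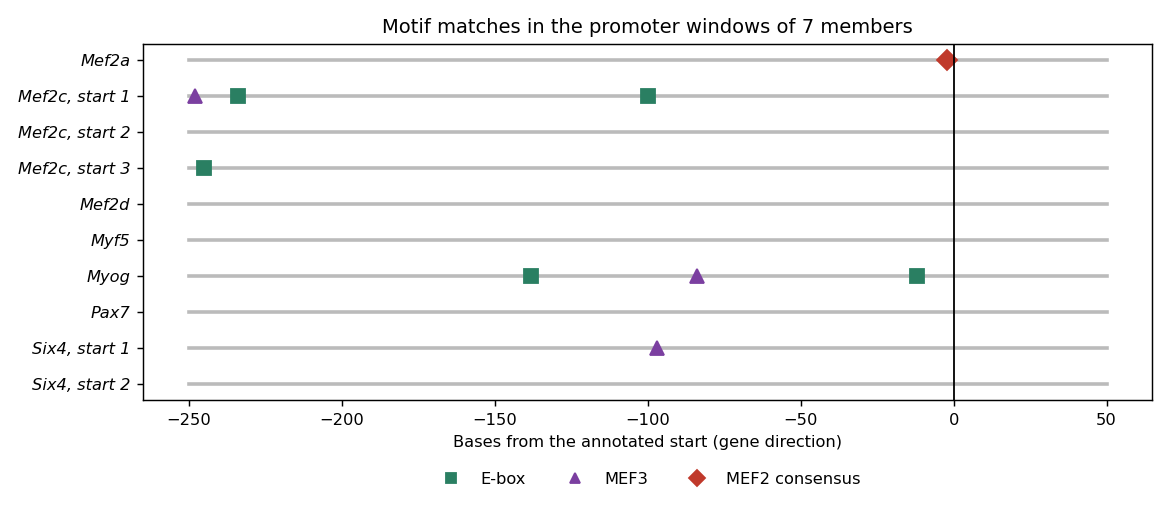
Positions of E-box, MEF3 and MEF2 consensus matches in 10 promoter windows of 7 members, in bases from the annotated start (line at 0), with the window from 250 bases before to 50 after as a grey bar. Myog carried 2 E-boxes and a MEF3 match, and the MEF2 consensus match of Mef2a lay at the start itself.

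The tissue label was checked against marker genes, and muscle content was measured in the same libraries. The uncoupling protein gene Ucp1 was 521.5 to 1305 FPKM in WT and 409.0 to 645.2 FPKM in PATKO, where FPKM is a fragment count scaled by gene length and by library total. Pgrmc2 itself was 38.5 ± 2.87 FPKM in WT and 3.24 ± 0.301 FPKM in PATKO (SD, n = 4). The summed level of 30 skeletal muscle fibre genes was 654.7 to 1533 FPKM in WT and 1766 to 6745 FPKM in PATKO, with no overlap, and none of the 30 was at 0 in every library. FPKM of all genes summed to a mean of 289518 per WT library and 310782 per PATKO library. The median log2 change of the 12235 genes tested was 0.17 with FPKM as deposited and -0.00 after median-of-ratios scaling, which centres the median gene. Every change below is to be read against that shift.

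At the level of the whole set, the MEF2 genes were abundant and the lineage-committing factors were nearly undetected. Averaged over the 8 libraries, Mef2a was at 18.8 FPKM, Mef2d at 13.2, Mef2c at 4.51 and Myf6 at 1.17 FPKM. Six4 followed at 0.464 FPKM, Myod1 at 0.108, Myog at 0.0701, Myf5 at 0.0285 and Pax7 at 0.00988 FPKM. These are levels per gene length, so the genes can be compared. In WT, the ranges of Myf6 and Six4 overlapped, as did those of Myod1, Myog and Pax7, so these neighbours in the order are not apart. In PATKO, the ranges of Mef2c and Myf6 overlapped through PATKO 71 alone. The 4 members with a mean of at least 0.5 FPKM were Mef2a, Mef2c, Mef2d and Myf6, and these entered the test across all genes. The other 5 lay below it and are given by their values, with an exact permutation test.

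All 9 members had a higher mean in PATKO than in WT. For 6 of them (Myf5, Myod1, Myf6, Mef2a, Mef2c and Mef2d) every PATKO library lay above every WT library. Among all 17850 genes above 0 in some library, that held for 17.6%, for 24% of the 12235 tested genes and for 3.63% of the 5615 genes below 0.5 FPKM. After median-of-ratios scaling it held for 5 members, without Mef2d, and for 4.51% of all genes above 0 (5.57% of tested genes and 2.21% of those below 0.5 FPKM). Myf6 reached the filter only through PATKO (WT mean 0.485 FPKM), so counts over the tested members are a description. Limma with Benjamini-Hochberg adjustment called 2 of the 4 tested members higher, Mef2a and Mef2c, where 13.2% of all tested genes were called higher. After scaling it called 0 of 4 members, and 0.123% of genes were called in either direction (0.0817% higher). Of all tested genes, 34.6% were higher at an unadjusted p under 0.05 as deposited and 9.1% after scaling. For the 3 MEF2 genes that p was 0.000691 (Mef2a), 0.00386 (Mef2c) and 0.0213 (Mef2d) as deposited, and 0.0125, 0.0215 and 0.369 after scaling. A log2 change above 0 was the rule as deposited (84% of tested genes) and not after scaling (48.9%). The highest library was PATKO 71 for 5 members, PATKO 70 for 3 and PATKO 53 for 1, and no WT library was the highest for any member.

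**Figure D2:**
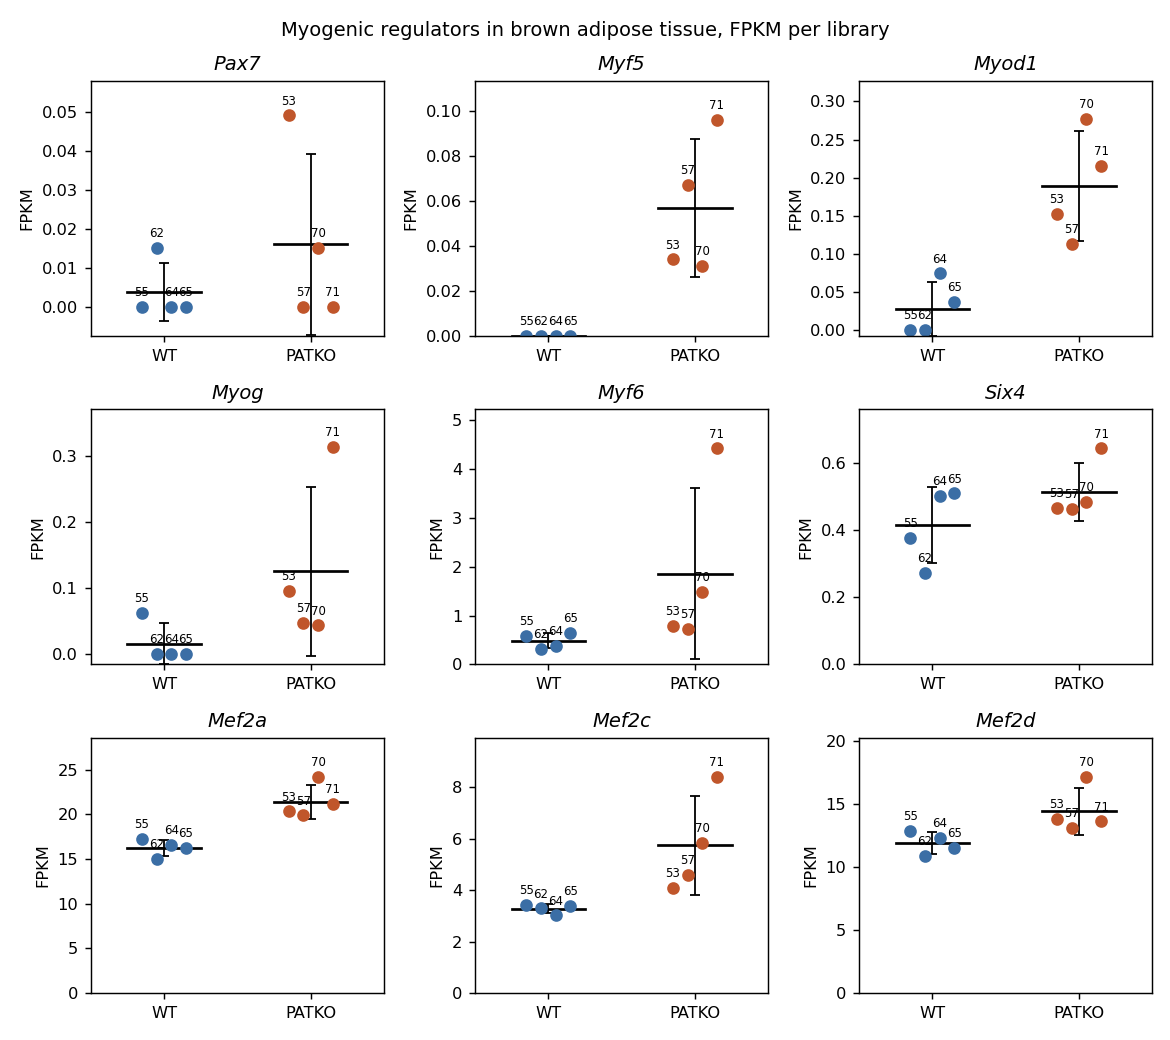
FPKM of each of the 9 members in 4 WT (blue) and 4 PATKO (orange) libraries, each point labelled with its library number, with the mean as a line and the SD as a bar (n = 4). Groups are apart for 6 members, and PATKO 71 is the highest library for Myf5, Myog, Myf6, Six4 and Mef2c.

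Among the upstream factors, Pax7, which marks adult muscle stem cells (satellite cells), was barely present. WT 62 had 0.015 FPKM and WT 55, 64 and 65 were listed at 0, while PATKO 53 and PATKO 70 had 0.049 and 0.015 FPKM and PATKO 57 and 71 were listed at 0. The groups overlapped (two-sided exact permutation p = 0.7143). Six4 (chromosome 12, 73099609 to 73113456, minus strand of GRCm38) had FPKM values of 0.377, 0.273, 0.502 and 0.508 for WT 55, 62, 64 and 65. It was 0.466, 0.463, 0.483 and 0.642 FPKM in PATKO 53, 57, 70 and 71. Its groups overlapped too (exact permutation p = 0.2857).

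Myf5 (chromosome 10, 107482908 to 107486134, minus strand, GRCm38) was listed at 0 in all 4 WT libraries. It was 0.034, 0.067, 0.031 and 0.096 FPKM in PATKO 53, 57, 70 and 71. It was therefore above 0 in every PATKO library and in no WT library (exact permutation p = 0.0286, the smallest that the 70 assignments of 8 libraries allow). Of the 708 such low genes at 0 in all WT libraries, 1.55% were above 0 in every PATKO library. That pattern was shown by 0.196% of the 5615 genes under 0.5 FPKM, and its mirror image, above 0 in the 4 WT libraries alone, by 0.107%. Myf5 neighbours Myf6 at a distance of 6718 bases, and no gene of the annotation overlaps either.

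Myod1 (chromosome 7, 46376474 to 46379099, plus strand, GRCm38) was listed at 0 in WT 55 and WT 62, at 0.074 FPKM in WT 64 and at 0.036 FPKM in WT 65. In PATKO 53, 57, 70 and 71 it was 0.152, 0.113, 0.277 and 0.215 FPKM. The groups did not overlap (exact permutation p = 0.0286). With no filter on low values, 17850 genes were tested and limma called Myod1 (log2 change 0.38, SE 0.08, adjusted p = 0.045). The same test on scaled values gave an adjusted p of 0.176 by limma. Myf5 did not pass in either of these fits (limma adjusted p = 0.0724 and 0.222).

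Myog (chromosome 1, 134289989 to 134292548, plus strand, GRCm38), the differentiation factor, was 0.062 FPKM in WT 55 and listed at 0 in the other 3 WT libraries. It was 0.095, 0.047, 0.043 and 0.314 FPKM in PATKO 53, 57, 70 and 71. WT 55 lay above PATKO 57 and PATKO 70, so the groups overlapped (exact permutation p = 0.0857). PATKO 71 was the highest library.

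These low values were whole multiples of the value of 1 read, which shows how few reads they stand for. Relative depth was taken from genes with few reads, and put the other 7 libraries at 1.301 to 1.423 times the reads of WT 55. On that scale every value of Pax7, Myf5, Myod1, Myog and Pax3 lay within 0.027 reads of a whole number, against a tolerance of 0.1. The read numbers are the smallest whole numbers within that tolerance, so a common multiple of them would serve as well. Myf5 then had 0 reads in WT and 1, 2, 1 and 3 reads in PATKO 53, 57, 70 and 71. Myod1 had 0, 0, 2 and 1 reads in WT 55, 62, 64 and 65, and 4, 3, 8 and 6 reads in PATKO. Myog had 1 read in all of WT and 11 in PATKO, 7 of them in PATKO 71. Pax7 had 1 read in WT and 4 in PATKO. The difference in Pax7 was not detectable at this depth, and a 0 in a library does not show that the gene was silent there.

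**Figure D3:**
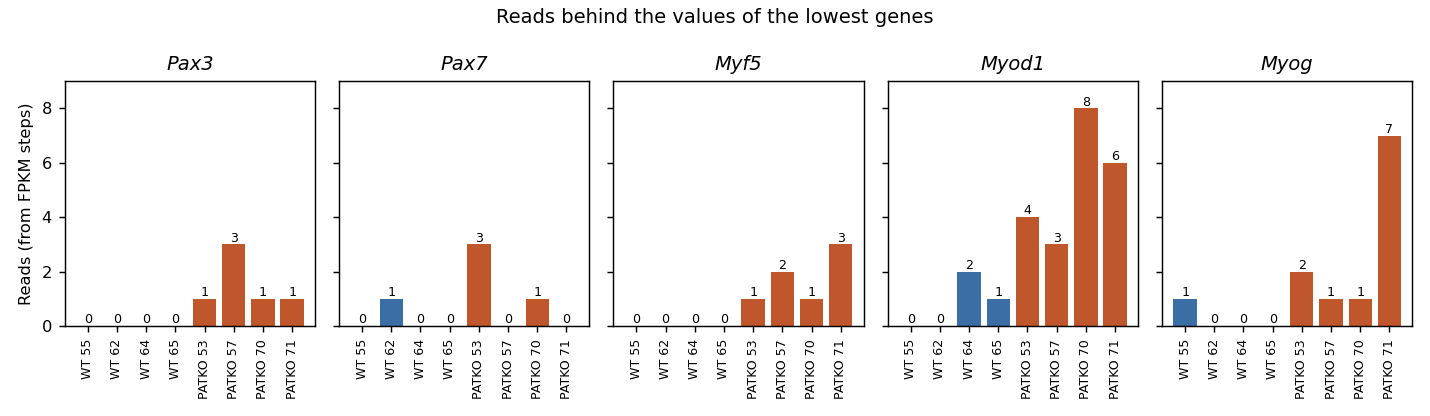
Reads behind each value of Pax3, Pax7, Myf5, Myod1 and Myog in the 8 libraries (blue WT, orange PATKO), recovered from the FPKM steps. Totals over the 4 libraries of a group were 3 reads in WT and 21 in PATKO for Myod1, and 0 and 7 for Myf5.

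Myf6 (chromosome 10, 107492853 to 107494737, minus strand, GRCm38), the factor of adult fibres, was the most abundant of the 4 myogenic helix-loop-helix genes in every library. Its FPKM values were 0.588, 0.319, 0.384 and 0.650 for WT 55, 62, 64 and 65, while PATKO 53, 57, 70 and 71 had 0.790, 0.729, 1.49 and 4.42. The groups were apart by a small margin, and PATKO 71 stood well above all the other libraries. The PATKO mean was 3.83 times the WT mean (exact permutation p = 0.0286). Limma gave a log2 change of 1.03 (SE 0.39) on the log2(FPKM + 0.5) scale and did not call it (adjusted p = 0.0947). The log2 change was 0.59 without PATKO 71 (adjusted p = 0.0997) and 0.91 after median-of-ratios scaling (adjusted p = 0.278), and its adjusted p ranged from 0.0739 to 0.516 over all alternatives.

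Mef2c (chromosome 13, 83504034 to 83667080, plus strand, GRCm38), a MEF2 gene of muscle, endothelium and other tissues, rose with FPKM as deposited. Its FPKM values were 3.42, 3.29, 3.02 and 3.38 for WT 55, 62, 64 and 65, while PATKO 53, 57, 70 and 71 had 4.10, 4.61, 5.85 and 8.41. The WT libraries were close to each other, and the PATKO libraries spread over a wider range that lay wholly above them. The ratio of means was 1.75, and limma gave a log2 change of 0.68 (SE 0.18, adjusted p = 0.0404). On scaled values the log2 change was 0.50 (limma adjusted p = 0.218). The call was lost without WT 55 (adjusted p = 0.0536), WT 62 (0.0863), WT 64 (0.091), WT 65 (0.0698), PATKO 53 (0.0575) or PATKO 70 (0.0964). It was kept without PATKO 57 (0.0477) or PATKO 71 (0.0495, log2 change 0.49), and over all alternatives the adjusted p ran from 0.0386 to 0.91. FPKM values do not say which of the Mef2c starts was used.

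Mef2a (chromosome 7, 67231163 to 67372858, minus strand, GRCm38), the most abundant member, rose with a narrower spread between libraries. Its FPKM values were 17.2, 15.02, 16.5 and 16.2 for WT 55, 62, 64 and 65, while PATKO 53, 57, 70 and 71 had 20.3, 19.9, 24.2 and 21.2. PATKO 70 was the highest library and PATKO 71 did not stand out. The ratio of means was 1.32, and limma gave a log2 change of 0.38 (SE 0.08, adjusted p = 0.0263). On scaled values the log2 change was 0.19 (limma adjusted p = 0.182). The call was lost without WT 62 (adjusted p = 0.062), WT 64 (0.0681), PATKO 53 (0.0581) or PATKO 70 (0.0604), and over all alternatives the adjusted p ran from 0.026 to 0.435. The opposite-strand gene Lysmd4 overlaps Mef2a and was 1.93 ± 0.298 FPKM in WT and 2.41 ± 0.251 in PATKO (SD, n = 4). The library kit kept strand, but the sources used here do not state whether the counting used it, so reads of this pair cannot be told apart where they overlap, and the same holds for Mef2d and 1700113A16Rik.

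Mef2d (chromosome 3, 88142372 to 88172086, plus strand, GRCm38) did not pass, and had the smallest log2 change of the 4 tested members. Its FPKM values were 12.9, 10.9, 12.3 and 11.6 for WT 55, 62, 64 and 65, while PATKO 53, 57, 70 and 71 had 13.8, 13.1, 17.2 and 13.6. The groups were apart as deposited (log2 change 0.26, SE 0.10, limma adjusted p = 0.0868). On scaled values they overlapped (log2 change 0.07, limma adjusted p = 0.684, and 0.0761 to 0.729 over all alternatives). In the authors' deposited table, the adjusted p was 0.0566 for Mef2c, 0.0717 for Mef2a, 0.754 for Mef2d, 0.935 for Six4 and 1 for Pax7, Myf5, Myod1, Myog and Myf6.

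**Figure D4:**
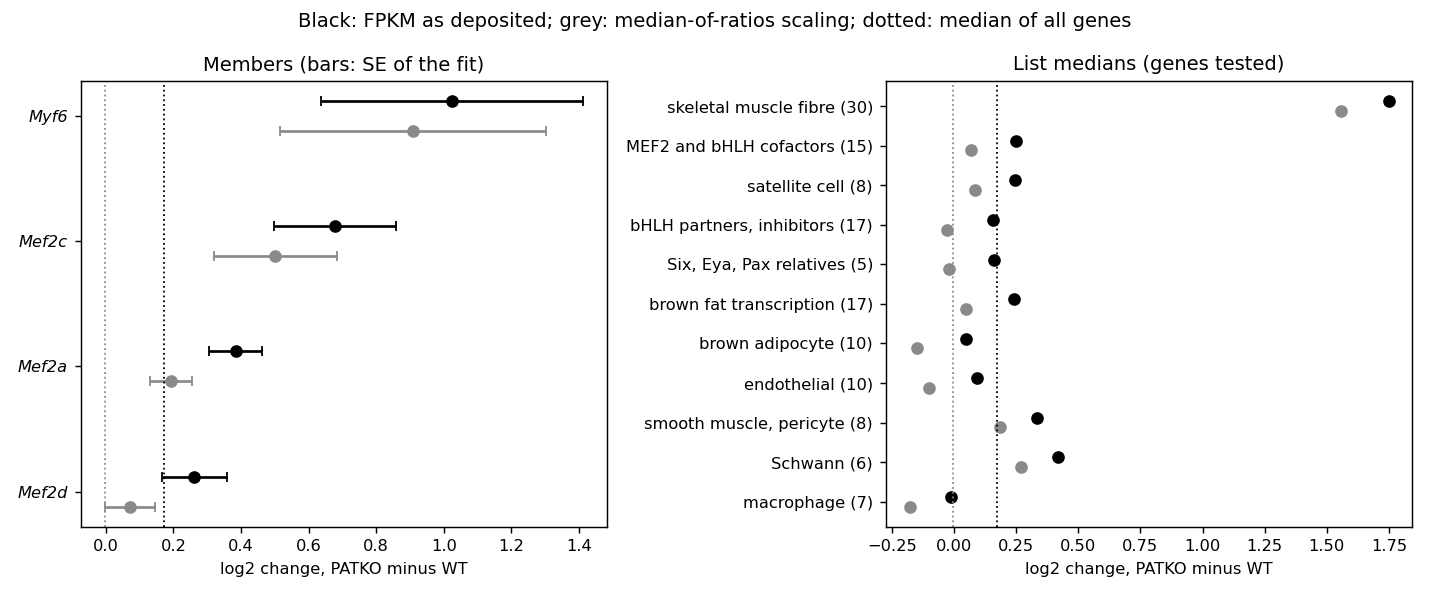
Left, log2 change (PATKO minus WT) of the 4 tested members with the SE of the fit, and right, the median log2 change of each gene list with the number of genes tested, with FPKM as deposited (black) and after median-of-ratios scaling (grey). Dotted lines are the median of all genes, 0.17 and -0.00. On the scale of the fit, the muscle fibre list at 1.75 lies beyond each of the 4 tested members. That scale understates changes of low genes such as Myf6, whose PATKO mean was 3.83 times the WT mean. Members below the filter are not plotted, so they are not compared with the fibre list here.

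The members were then set against the muscle fibre content of each library. The muscle index, the mean log2(FPKM + 0.5) over the 30 fibre genes, was 3.67, 3.27, 3.37 and 4.38 in WT 55, 62, 64 and 65, and 5.15, 4.73, 5.15 and 6.58 in PATKO 53, 57, 70 and 71. WT 65 was the highest WT library and PATKO 71 the highest of all. In bulk tissue, more muscle cells and more RNA per muscle cell cannot be told apart. The index was higher by 1.73 in PATKO (exact permutation p = 0.0286), that is 3.31-fold. Myf6, like the index, was highest in PATKO 71 and lowest in PATKO 57 among PATKO libraries, and highest in WT 65 and lowest in WT 62 among WT libraries. Mef2c was also highest in PATKO 71, whereas Mef2a and Mef2d were highest in PATKO 70.

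Relative to the muscle index, Myf6 came closest of the 4 tested members to the fibre genes. Its log2 level minus the index was -3.55, -3.56, -3.55 and -4.17 in WT 55, 62, 64 and 65, and -4.78, -4.43, -4.15 and -4.28 in PATKO 53, 57, 70 and 71. These values overlapped between the groups (difference -0.70, exact permutation p = 0.0571). With a pseudocount of 0.1 the difference was -0.40 (exact permutation p = 0.1429). For Mef2c the difference was -1.05, also with overlap (exact permutation p = 0.0571). Without WT 65, the WT library with the highest index, the groups were apart for both, with a difference of -0.86 for Myf6 and -1.27 for Mef2c (exact permutation p = 0.0286). Mef2a and Mef2d lay lower in every PATKO library, by -1.34 and -1.47 on the log2 scale (exact permutation p = 0.0286 for both). That p was 0.0571 for Mef2a without any single library other than WT 65, and for Mef2d without any single PATKO library, with differences of -0.95 and -1.05 without PATKO 71. Subtraction of the index put 81.3% of the 12235 tested genes lower in every PATKO library, so the lower values of Mef2a and Mef2d are the common case. With the muscle index as a covariate in limma, the log2 change was 0.07 for Mef2c (adjusted p = 0.91), 0.35 for Mef2a (adjusted p = 0.435), 0.29 for Mef2d and -0.55 for Myf6 (adjusted p = 0.516). The index was higher in every PATKO library than in every WT library, so its part and that of the genotype cannot be told apart in that fit.

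**Figure D5:**
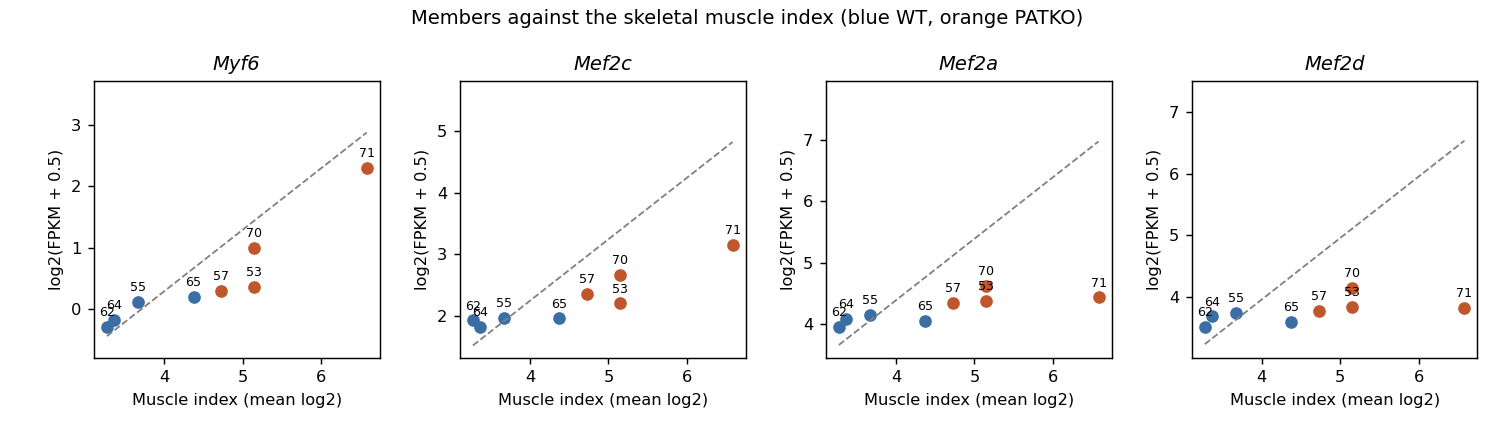
log2(FPKM + 0.5) of Myf6, Mef2c, Mef2a and Mef2d against the muscle index of the same library (blue WT, orange PATKO), with vertical axes of equal span. The dashed line through the WT means has a slope of 1: the PATKO points fall least below it for Myf6 (difference from the index -0.70) and most for Mef2d (-1.47).

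The genes with the most similar profiles differed between Myf6 and the MEF2 genes. Likeness was measured as the root mean square difference of centred log2(FPKM + 0.5) values over the 8 libraries, as a description with no test. It used FPKM as deposited, so the shift common to most genes is part of it. The pseudocount of 0.5 also understates changes of low genes, so a low gene can rank near a member whose FPKM changed by a smaller factor. The 3 tested genes nearest to Myf6 were Lrrc30 (0.158), the unconventional myosin gene Myo18b (0.231) and the smoothelin-like gene Smtnl1 (0.235), against a spread of 0.778 for Myf6 itself. Lrrc30 was 0.226 to 0.728 FPKM in WT and 3.43 FPKM in PATKO 71. Nearest to Mef2c were Amot (0.064), which encodes angiomotin, Wfdc1 (0.065) and the profilin gene Pfn2 (0.109), against a spread of 0.428. Wfdc1 was such a low gene, at 0.342 to 0.394 FPKM in WT and 1.66 FPKM in PATKO 71. Mef2a was nearest to Nisch, Ubr2 and Aqp11 (0.032 to 0.037, spread 0.212). Mef2d was nearest to Zfp879, the acetyltransferase gene Ep300 and the nucleoporin gene Nup188 (0.032 to 0.036, spread 0.179).

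Among relatives of the members, limma called none of the 5 tested genes of 9 (0 at an unadjusted p under 0.05), and their median log2 change was 0.16 against 0.17 for all genes. Pax3, an upstream factor like Pax7, was listed at 0 in all WT libraries and at 0.018, 0.054, 0.017 and 0.017 FPKM in PATKO 53, 57, 70 and 71, which is 6 reads in all. Eya4, a cofactor gene of SIX4 and its relatives, was 0.091 to 0.163 FPKM in WT and 0.172 to 0.465 FPKM in PATKO. After median-of-ratios scaling the groups of Eya4 overlapped (WT up to 0.180, PATKO from 0.164). Pax3 and Eya4 were chosen after their values were seen, as genes below the filter.

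Among E-protein partners and inhibitors of the helix-loop-helix factors, limma called none of 17 tested genes, with a median log2 change of 0.16. The unadjusted limma p was under 0.05 for 3, each higher, against 34.6% of all tested genes. The inhibitor gene Id2, whose product sequesters E proteins, had the smallest adjusted p. Its FPKM values were 23.1, 12.3, 14.2 and 22.7 for WT 55, 62, 64 and 65, and all PATKO libraries lay between 26.4 and 27.6 (limma adjusted p = 0.0518). The E-protein gene Tcf12 was 10.6 ± 0.565 FPKM in WT and 11.4 ± 0.651 in PATKO, and Tcf3 was 6.43 ± 0.409 and 7.49 ± 1.11 FPKM (SD, n = 4), with overlap for both.

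Of 15 tested MEF2 and helix-loop-helix cofactor genes, 2 rose and 13 did not pass, with a median log2 change of 0.25. That share is near the 13.2% of all tested genes called higher, so these calls are no result about the cofactors as a group. As deposited, the unadjusted limma p was under 0.05 for 9 of the 15, each higher, against 34.6% of all tested genes. Mapk14, the p38 kinase gene whose product phosphorylates MEF2 and E proteins, rose (17.6 ± 1.14 FPKM in WT, 23.3 ± 0.950 in PATKO; SD, n = 4) with a limma adjusted p of 0.0208. Carm1, an arginine methyltransferase coactivator gene, rose (10.8 ± 1.64 FPKM in WT, 14.4 ± 1.21 in PATKO; SD, n = 4) with a limma adjusted p of 0.0404. After median-of-ratios scaling limma called none of the 15 (unadjusted p under 0.05 for 2, both higher, against 9.1% of all tested genes). Without WT 62, WT 64, PATKO 53 or PATKO 70, it also called none, against 1 without WT 65, PATKO 57 or PATKO 71 and 3 without WT 55. The muscle cofactor gene Vgll2, below the filter and chosen after its values were seen, reached at most 0.246 FPKM in WT, while PATKO 53, 57, 70 and 71 had 0.342, 0.255, 0.584 and 1.94 FPKM. After median-of-ratios scaling the groups of Vgll2 overlapped (WT up to 0.255, PATKO from 0.243).

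Of the genes of myoblast fusion, the neuromuscular synapse and immature fibres, 2 of 16 reached the filter, the synapse genes Rapsn (0.433 to 1.65 FPKM) and Chrnb1 (1.42 to 2.14 FPKM), and limma called neither. The myoblast fusion genes Tmem8c (Mymk) and Gm7325 (Mymx) were listed at 0 in all 8 libraries. The embryonic myosin gene Myh3 reached at most 0.011 FPKM in WT, while PATKO 53, 57, 70 and 71 had 0.047, 0.047, 0.108 and 0.156 FPKM. The perinatal myosin gene Myh8 was listed at 0 in WT and was 0.011 to 0.076 FPKM in PATKO. Musk, the kinase gene of the neuromuscular synapse, was 0.064, 0.063, 0.135 and 0.24 FPKM in PATKO 53, 57, 70 and 71, against 0.04 FPKM in WT 62 and 0 elsewhere. Myh3, Myh8, Musk and Ncam1 (0.136 to 0.169 FPKM in WT, 0.231 to 0.46 FPKM in PATKO) were the 4 of 16 genes whose groups did not overlap, against 3.63% of all genes below 0.5 FPKM, and they are named for that reason, after their values were seen. Other members overlapped, among them Chrne, Lrp4, Chrnb1 and Runx1, whose PATKO mean was 82.9% of WT.

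Genes of mature fibres had the largest median change of the lists measured. Of 30 tested fibre genes limma called 29 higher and 0 lower, with a median log2 change of 1.75. The list was chosen with earlier results of these libraries known, so its direction is no independent evidence. Myh2, a fast myosin gene, was 2.01 ± 0.572 FPKM in WT and rose to 12.4 ± 7.67, and Acta1, which encodes skeletal actin, was 97.3 ± 42.8 and rose to 392.8 ± 274.3 (SD, n = 4). After median-of-ratios scaling the median was 1.56 and limma called 0 of 30 (30 higher at an unadjusted p under 0.05). As deposited it called 27 without PATKO 71, 1 without WT 62, 1 without PATKO 70, and 0 without WT 64 or without PATKO 53.

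Of 8 tested satellite cell genes 2 rose, Met, the hepatocyte growth factor receptor gene (6.52 ± 0.409 to 8.27 ± 0.582 FPKM), and the syndecan gene Sdc4 (8.03 ± 0.442 to 10.8 ± 1.87 FPKM; SD, n = 4; limma adjusted p = 0.0351 and 0.0458). Both genes are expressed in many other cells. Among all tested genes, the share called higher was 13.2%. After median-of-ratios scaling limma called none of the 8 (unadjusted p under 0.05 for 2, both higher, against 9.1% of all tested genes). Leaving out any one library other than WT 55 or PATKO 71 also left none. The more restricted marker Calcr was listed at 0 in 7 libraries and at 0.02 FPKM in PATKO 57. Cdh15 was 0.048 to 0.095 FPKM in WT and 0.091 to 0.445 FPKM in PATKO.

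Of 17 transcription regulators of brown adipocytes 1 rose, Ehmt1, a histone methyltransferase gene that acts with PRDM16 (6.01 ± 0.231 to 7.95 ± 0.861 FPKM; SD, n = 4; limma adjusted p = 0.0319), and it did not pass after median-of-ratios scaling (adjusted p = 0.241). Limma called none of the 17 without WT 62, WT 64, WT 65, PATKO 53 or PATKO 70. As deposited, 13.2% of all tested genes were called higher. The PATKO mean was 100.1% of the WT mean for Prdm16 (2.40 to 3.54 FPKM in WT) and 101.5% for Ebf2, another determinant of brown fat (exact permutation p = 0.9714 and 0.8). Of 10 brown adipocyte genes limma called 1 higher as deposited, again against 13.2% of all tested genes. That gene was Kcnk3 (limma adjusted p = 0.0396), which did not pass after scaling (limma adjusted p = 0.419). Limma called none of the 10 with no filter, without a trend, or without any single library other than WT 55. The fatty acid elongase gene Elovl3 had the largest difference of that list. It was 1.71, 14.7, 1.42 and 4.78 FPKM in the WT libraries 55, 62, 64 and 65 and 0.888 to 1.31 FPKM in PATKO, lower in every PATKO library, and limma did not call it (adjusted p = 0.0981).

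Markers of other cells that express MEF2 genes were measured beside them. Of 10 endothelial genes limma called 1 higher as deposited, Emcn (12.7 ± 1.70 to 17.0 ± 1.78 FPKM; SD, n = 4; adjusted p = 0.0399), against 13.2% of all tested genes. It did not pass after scaling (adjusted p = 0.363), and none of the 10 was called with no filter, without a trend, or without any single library other than WT 55. The summed endothelial level was 218.4 to 297.3 FPKM in WT and 247.1 to 293.6 FPKM in PATKO. Of 7 macrophage genes limma called none, and their sums were 61.6 to 135.8 and 62.8 to 139.7 FPKM. Smooth muscle and pericyte genes had sums of 129.4 to 152.9 and 136.7 to 180.9 FPKM. The 1 call among 8 tested, Lmod1, sat at the threshold (limma adjusted p = 0.05 after rounding), in a gene that reached the filter through PATKO (WT mean 0.439 FPKM). It was lost with a pseudocount of 1, a lower filter or none, no trend, either scaling, the covariate, or without any single library other than PATKO 57, and nothing is read from it. The myelin gene Mbp of the Schwann cell list rose (6.29 to 8.48 FPKM in WT, 8.70 to 11.6 FPKM in PATKO; limma adjusted p = 0.0341, and 0.229 after scaling), and the 6 genes of that list had sums of 35.3 to 51.6 and 41.6 to 50.3 FPKM. B cell genes summed to 1.83 to 2.12 FPKM in WT and 0.969 to 1.82 FPKM in PATKO, with 1 of 5 tested and none called. Of 5 cardiac genes none was tested, and Nppa, Myl7 and Nkx2-5 were listed at 0 in every library. The other 2 were not at 0: the cardiac myosin gene Myh6 reached 0.011 FPKM in WT and was 0.047, 0.012, 0.739 and 0.1 FPKM in PATKO 53, 57, 70 and 71, with no overlap, and Tnnt2 was highest in WT 65 at 1.42 FPKM and reached 0.182 FPKM in PATKO. The summed levels of the endothelial, macrophage, smooth muscle and Schwann cell lists overlapped between the groups. Those of the muscle fibre list (higher in PATKO) and of the B cell list (lower in PATKO) did not. The B cell sums were low and apart by a narrow margin as deposited. The part of any of these cells in the MEF2 changes was not tested.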

How the data were processed

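Poly(A)-selected RNA of 8 brown adipose tissue libraries was measured. The build was mm10, per the submitters' processing notes, and the sources used here do not state the aligner, counting tool, strand setting or annotation. The authors deposited FPKM values, per the file headers, per gene symbol and library, and an adjusted p-value for PATKO against WT from a test that is not named. FPKM values are not counts, so limma 3.58.1 in R 4.3.3 (lmFit, eBayes with trend, two-sided) was run on log2(FPKM + 0.5) for 12235 genes that averaged 0.5 FPKM or more. Benjamini-Hochberg adjustment ran over these, and 0.05 was the threshold. Changes on this scale are understated for low genes. Single genes also had a two-sided exact permutation test over 70 assignments. Read totals are unknown, so no counting intervals are given. Relative depth was the mode of FPKM ratios of low genes. The fit was also run on simulated data, with genes drawn independently and no shift common to most genes. That run therefore does not cover the shift seen in these libraries.

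The members and lists were chosen with earlier results of these data known. The text names all 9 members, Pgrmc2, list genes among the 4 smallest adjusted p-values of each list, the 3 genes nearest to each tested member, and others stated as chosen after their values were seen. The rule also takes list genes at 0 whose absence is stated (Nppa, Myl7, Nkx2-5, Tmem8c, Gm7325). Genes outside it (Prdm16, Ebf2, Tcf3, Tcf12, Acta1, Calcr, Cdh15, Lysmd4, 1700113A16Rik, Myh6, Tnnt2, Chrne, Lrp4 and Runx1) were named after their values were seen, to describe a marker, partner or overlapping gene. Values of some other list genes are not reported here. Alternatives were a pseudocount of 1 or 0.1, a lower filter (0.1 FPKM) or none, median-of-ratios and common total scaling, no trend, the muscle index as covariate and leaving out each library. Promoter sequences were from RefSeq (GRCm38.p6) and positions from GENCODE M21 (GRCm38, the assembly mm10 names). Figures used Python 3.11.15, pandas 2.3.3, numpy 2.4.6 and matplotlib 3.10.9.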

Additional observations from a re-analysis of the deposited data

Results flagged for a closer look

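A library lay far from the other 3 of its group in 3 of 20 groups examined (9 members and the muscle index in WT and in PATKO) by Dixon's gap criterion, and chance alone gives about 1 in 20 for continuous values. That rate does not apply to Myog and Pax7, where 1 read against 3 libraries at 0 meets the criterion by construction. Myog was 0.062 FPKM in WT 55, which is 1 read, and listed at 0 in the other WT libraries. Pax7 was 0.015 FPKM in WT 62, also 1 read, and listed at 0 in the other WT libraries. Six4 was 0.642 FPKM in PATKO 71, the library with the highest muscle index, and 0.463 to 0.483 FPKM in the other PATKO libraries.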

How the results depend on the processing

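Of the 9 members limma called 2 in the test as reported. It also called 2 with a pseudocount of 1 or 0.1, a minimum mean of 0.1 FPKM or no filter, and with no filter the pair was Mef2a and Myod1. It called 1 without a trend, and 0 with median-of-ratios scaling (also without PATKO 71 or without a filter, the last chosen after seeing the data), common total scaling or the muscle index as covariate. Leaving out 1 library gave 0 to 2. The cause was not tested, and fewer libraries also carry less power. The count over all genes was 1646, and became 713 with no filter (17850 genes tested), 992 without a trend, 28 with common total scaling, 15 with median-of-ratios scaling, 8 with that scaling and no filter, 3 with that scaling without PATKO 71, and 2 with the muscle index as covariate. Leaving out 1 library gave 24 to 1463. Of 72 alternatives for the log2 changes of the 4 tested members, 49 kept direction and side of the threshold and 22 lost the call. The direction turned in 1, Myf6 with the muscle index as covariate (-0.55, adjusted p = 0.516). Myf6 and Mef2d were not called to begin with, so for them the same side means that they stayed uncalled. Every lost call was of Mef2a or Mef2c. When 1 library was left out, limma kept the call of Mef2a in 4 of 8 fits and that of Mef2c in 2 of 8. Of 9 permutation results, that of Mef2d alone was lost with scaling (p = 0.4). Of 108 alternatives for differences relative to the muscle index none turned the direction, but 31 lost the call and 2 gained it, and 81.3% of all tested genes lie lower after that subtraction. For the 5 members below 0.5 FPKM the pseudocount hides most of their own change. Their difference is then close to the rise of the index with its sign turned (Pax7 -1.695, index 1.73). The kept direction therefore says little about these 5 members. No paired analysis was possible because the library numbers are not shared between the groups. Values of Pax7, Myf5, Myod1 and Myog rest on 5 to 24 reads over all libraries, which limits them.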
